A study of Mus musculus with 9 samples.

Results

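The genes described are 10 members of the tumour necrosis factor (TNF) receptor and NF-κB system of regulatory T cells (Tregs), measured in Tregs of the mouse gut. They were given by name: the receptors Tnfrsf4, Tnfrsf9, Tnfrsf18, Tnfrsf1b, Tnfrsf25 and Cd27, the adaptor Traf1, and the NF-κB subunits Nfkb1, Nfkb2 and Relb. For each, the brightest array feature whose annotation names that gene and no other was taken. This gave values for 9 of the 10 genes, among 22180 genes with such a feature, and Nfkb1 was not analysed here. Each of the 9 had 1 such feature, and all 9 were among the 12792 genes that entered the tests.

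The cells came from small and large intestinal lamina propria of Y3/CD103-/-, Y3 and WT mice of strain C57BL/6, with 3 arrays per genotype. Tregs of all 3 groups were isolated by flow cytometry through a red fluorescent protein tied to Foxp3, the transcription factor that defines Tregs. CD103 is the αE integrin chain encoded by Itgae, and the title of the study also names IL-2Rβ, the receptor chain encoded by Il2rb. The labels do not describe Y3, which is read here from that title as an alteration of IL-2Rβ. The mice's ages and the promoter or allele behind Y3 were not stated, and no group lacked CD103 alone. The labels also do not say whether arrays were separate animals or pools, so p-values measure only the spread between these arrays.

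Values are log2 signals after RMA, the authors' background correction, normalisation and summary of probes, so a difference of 1 is a 2-fold difference. Differences were fitted with limma over all 9 arrays, errors of group values are SDs over 3 arrays, and a gene is said to rise or fall at a Benjamini-Hochberg adjusted p under 0.05. Itgae fell by 1.41 in Y3/CD103-/- against WT (limma adjusted p = 0.0159) and rose by 1.40 in Y3 against WT (limma adjusted p = 0.0169). With 1 array left out, its Y3 difference stayed between 1.305 and 1.502 but passed in 5 of 9 fits, with limma adjusted p-values of 0.0948 and 0.113 without Y3 array 1 or 3 and 0.0571 and 0.0509 without WT array 2 or 3. Its Y3/CD103-/- difference passed in 8 of 9 (limma adjusted p = 0.0538 without WT array 1). Il2rb averaged 8.16 in Y3/CD103-/-, 8.15 in Y3 and 9.19 in WT, with limma adjusted p-values of 0.0590 and 0.0565 for the groups against WT. Foxp3 averaged 9.55, 9.52 and 9.38 in the same order of groups. All 11 measured genes of a list of Treg and T cell markers lay above the median of their array on all 9 arrays. Y3 arrays 1 and 3 stood apart: they had the widest spread of values (SD 1.87 and 1.88, against 1.70 to 1.77 on the other 7 arrays) and were the most alike pair (r = 0.979). The median difference over all tested genes was 0.04 in Y3/CD103-/- against WT, 0.15 in Y3 against WT and -0.10 in Y3/CD103-/- against Y3, and the members' differences are read against these shifts. Because each array measured a bulk population, fewer cells of a type and less RNA per cell cannot be told apart.

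As background, receptors of this family bind trimeric ligands of the TNF family, gather TRAF adaptors at their tails and release NF-κB transcription factors into the nucleus. The classical route frees RelA and c-Rel from IκB proteins, and the alternative route has p100, the product of Nfkb2, cut to p52, which pairs with RelB. Tregs carry much OX40 (Tnfrsf4), GITR (Tnfrsf18) and TNFR2 (Tnfrsf1b), and these costimulatory receptors are known to support Treg growth in the thymus and in tissues. Nfkb2, Relb and Traf1 are themselves known targets of NF-κB, so their transcripts are often read beside the activity of the pathway.

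Across the 9 measured members, levels stood above WT for 8 in Y3/CD103-/- and for 8 in Y3, Tnfrsf25 being the exception in both. Of all tested genes, 55.1% stood above WT in Y3/CD103-/- and 70.5% in Y3. 1 member passed the test in any comparison: Nfkb2 rose 1.78-fold in Y3/CD103-/- against WT. That is 1 of 9 members, where 0.836% of all tested genes passed in this comparison. Of the 9, 0 passed by limma in Y3 against WT, where 0.79% of all tested genes passed. At an unadjusted p under 0.05, 5 members were higher in Y3/CD103-/- than in WT, where 7.9% of all tested genes were, and 3 were higher in Y3, where 13.4% were. Under the setting of limma that lets the variance follow the mean level, 2 members passed in Y3/CD103-/- against WT and 1 in Y3 against WT. Calls among all 12792 tested genes also rose in that setting, from 107 to 303 and from 101 to 332 in these 2 comparisons. The count of members in Y3/CD103-/- against WT was 0 in all 9 fits that left out an array and in 7 of 14 other settings. The WT arrays are shared by both comparisons with WT.

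The groups of arrays did not overlap for 8 members in Y3/CD103-/- against WT, all with Y3/CD103-/- higher, where 10.7% of all tested genes were higher without overlap. This held for 6 members in Y3 against WT, where 19% of all tested genes were higher without overlap. The Y3 count depended on the scaling. It was 4 members after quantile normalization, where 10.9% of all tested genes were higher without overlap, and 2 after centring each array on the median of the tested genes, where the share was 8.36%. The Y3/CD103-/- count was 8 under both, against shares of 9.55% and 9.78%. The median difference of the 9 members was 0.33 in Y3/CD103-/- against WT and 0.31 in Y3 against WT, and after centring each array on the median of the tested genes it was 0.31 and 0.14.

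**Figure D1:**
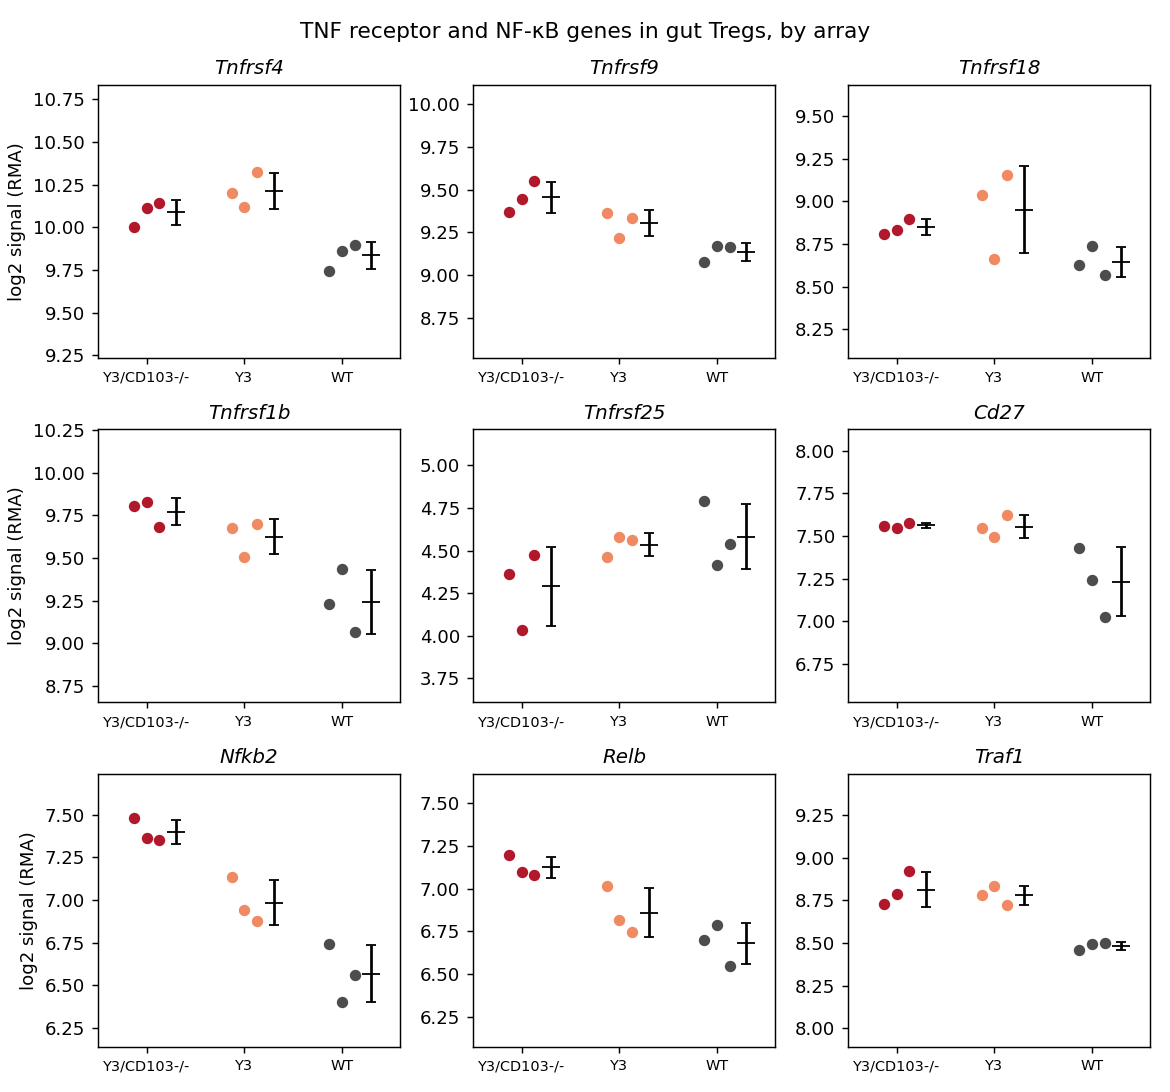
Log2 signal of the 9 measured members on each array, with Y3/CD103-/-, Y3 and WT from left to right, each point an array, and the bar beside them the mean and SD of 3 arrays. The vertical axes span the same range of log2 units but start at different levels. Nfkb2 and Tnfrsf9 have their 3 groups fully separated, Tnfrsf9 with only a narrow gap between Y3/CD103-/- and Y3, and Tnfrsf25 overlaps throughout.

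Among the receptors, Tnfrsf1b, which encodes TNFR2, a receptor for TNF on Tregs, showed the largest difference between Y3/CD103-/- and WT. Its signal was 9.80, 9.83 and 9.68 on the Y3/CD103-/- arrays, 9.68, 9.51 and 9.70 on the Y3 arrays, and 9.23, 9.44 and 9.06 on the WT arrays. All 6 arrays of the Y3/CD103-/- and Y3 groups lay above all 3 WT arrays. The difference was 0.53 ± 0.15 (SE; 1.44-fold, 95% interval 0.19 to 0.87) in Y3/CD103-/- against WT, which did not pass (limma adjusted p = 0.159, unadjusted p = 0.00567). In Y3 against WT it was 0.38 (95% interval 0.04 to 0.72, limma adjusted p = 0.243).

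Tnfrsf4, which encodes OX40, was the brightest feature of the 9, although levels of different features do not rank genes. It gave 10.00, 10.12 and 10.14 in Y3/CD103-/-, 10.20, 10.12 and 10.32 in Y3, and 9.75, 9.86 and 9.90 in WT. The Y3/CD103-/- and Y3 arrays overlapped each other and lay above the WT arrays. The difference was 0.25 in Y3/CD103-/- against WT (95% interval -0.06 to 0.56, limma adjusted p = 0.487) and 0.38 in Y3 against WT (95% interval 0.06 to 0.69, limma adjusted p = 0.221).

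Tnfrsf18, which encodes GITR and lies next to Tnfrsf4 on chromosome 4, gave 8.81, 8.83 and 8.90 in Y3/CD103-/-, 9.04, 8.66 and 9.15 in Y3, and 8.63, 8.74 and 8.57 in WT. Y3 arrays 1 and 3 were the highest of the 9, while Y3 array 2 fell within the WT range. The 3 Y3/CD103-/- arrays lay close together above WT, by 0.20 on average (limma adjusted p = 0.642), and the Y3 mean stood 0.31 above WT (limma adjusted p = 0.361).

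Tnfrsf9, which encodes CD137, a receptor induced on activated T cells, gave 9.37, 9.44 and 9.55 in Y3/CD103-/-, 9.36, 9.22 and 9.34 in Y3, and 9.08, 9.17 and 9.16 in WT. The means stood in the order Y3/CD103-/-, Y3 and WT, with no overlap between any pair of groups, although the lowest Y3/CD103-/- array and the highest Y3 array differed by little. The difference was 0.32 in Y3/CD103-/- against WT (95% interval 0.01 to 0.63, limma adjusted p = 0.359) and 0.17 in Y3 against WT (limma adjusted p = 0.560).

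Cd27, the costimulatory receptor for CD70, gave 7.56, 7.55 and 7.58 in Y3/CD103-/-, 7.54, 7.49 and 7.63 in Y3, and 7.43, 7.24 and 7.02 in WT. The Y3/CD103-/- and Y3 means were 7.56 ± 0.02 and 7.55 ± 0.07 (SD, n = 3 each), and the WT arrays were spread more widely at 7.23 ± 0.20 (SD, n = 3). Its differences from WT were 0.33 and 0.32, with limma adjusted p-values of 0.380 for Y3/CD103-/- and 0.308 for Y3.

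Tnfrsf25, which encodes the TL1A receptor DR3, was the dimmest of the 9 and the only receptor with lower means than WT. It gave 4.36, 4.03 and 4.48 in Y3/CD103-/-, 4.46, 4.58 and 4.56 in Y3, and 4.79, 4.41 and 4.54 in WT, with every pair of groups overlapping. The difference was -0.29 in Y3/CD103-/- against WT (95% interval -0.66 to 0.09, limma adjusted p = 0.508) and -0.05 in Y3 against WT (95% interval -0.42 to 0.33, limma adjusted p = 0.911).

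Traf1, an adaptor that binds the tails of several of these receptors together with TRAF2, gave 8.73, 8.78 and 8.92 in Y3/CD103-/-, 8.78, 8.84 and 8.72 in Y3, and 8.46, 8.49 and 8.50 in WT. The Y3/CD103-/- and Y3 arrays were intermixed, and all 6 lay above the tightly grouped WT arrays. The difference was 0.33 in Y3/CD103-/- against WT (95% interval 0.03 to 0.63, limma adjusted p = 0.328) and 0.30 in Y3 against WT (limma adjusted p = 0.303).

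Nfkb2, which encodes p100, the precursor of the p52 subunit, gave 7.48, 7.37 and 7.35 in Y3/CD103-/-, 7.13, 6.94 and 6.88 in Y3, and 6.74, 6.40 and 6.56 in WT. The 3 groups formed separate steps, with every Y3/CD103-/- array above every Y3 array and every Y3 array above every WT array. In Y3/CD103-/- against WT it rose by 0.83 ± 0.15 (SE; 95% interval 0.49 to 1.17, limma adjusted p = 0.0362), rank 79 by p among the 12792 tested genes. In Y3 against WT the difference was 0.42 ± 0.15 (SE; 95% interval 0.08 to 0.76, limma adjusted p = 0.218), and in Y3/CD103-/- against Y3 it was 0.41 ± 0.15 (SE; 95% interval 0.07 to 0.75, limma adjusted p = 0.441). The call did not hold without any 1 of the 9 arrays: the limma adjusted p was 0.101, 0.0858 and 0.106 without Y3/CD103-/- array 1, 2 or 3, 0.07, 0.062 and 0.0728 without Y3 array 1, 2 or 3, and 0.0538, 0.102 and 0.0829 without WT array 1, 2 or 3. The difference itself stayed between 0.75 and 0.92 in these 9 fits. With the mean of the epithelial or of the macrophage and dendritic marker list as a covariate, the difference was 0.83 and 0.75 and the limma adjusted p 0.121 and 0.0798.

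Relb, which encodes the partner of p52, gave 7.20, 7.10 and 7.08 in Y3/CD103-/-, 7.02, 6.81 and 6.75 in Y3, and 6.70, 6.79 and 6.55 in WT. The Y3/CD103-/- arrays lay above all others, while Y3 and WT overlapped. The difference was 0.45 ± 0.15 (SE; 1.36-fold, 95% interval 0.12 to 0.77) in Y3/CD103-/- against WT, which did not pass (limma adjusted p = 0.215, unadjusted p = 0.0124). In Y3 against WT it was 0.18 (limma adjusted p = 0.556).

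**Figure D2:**
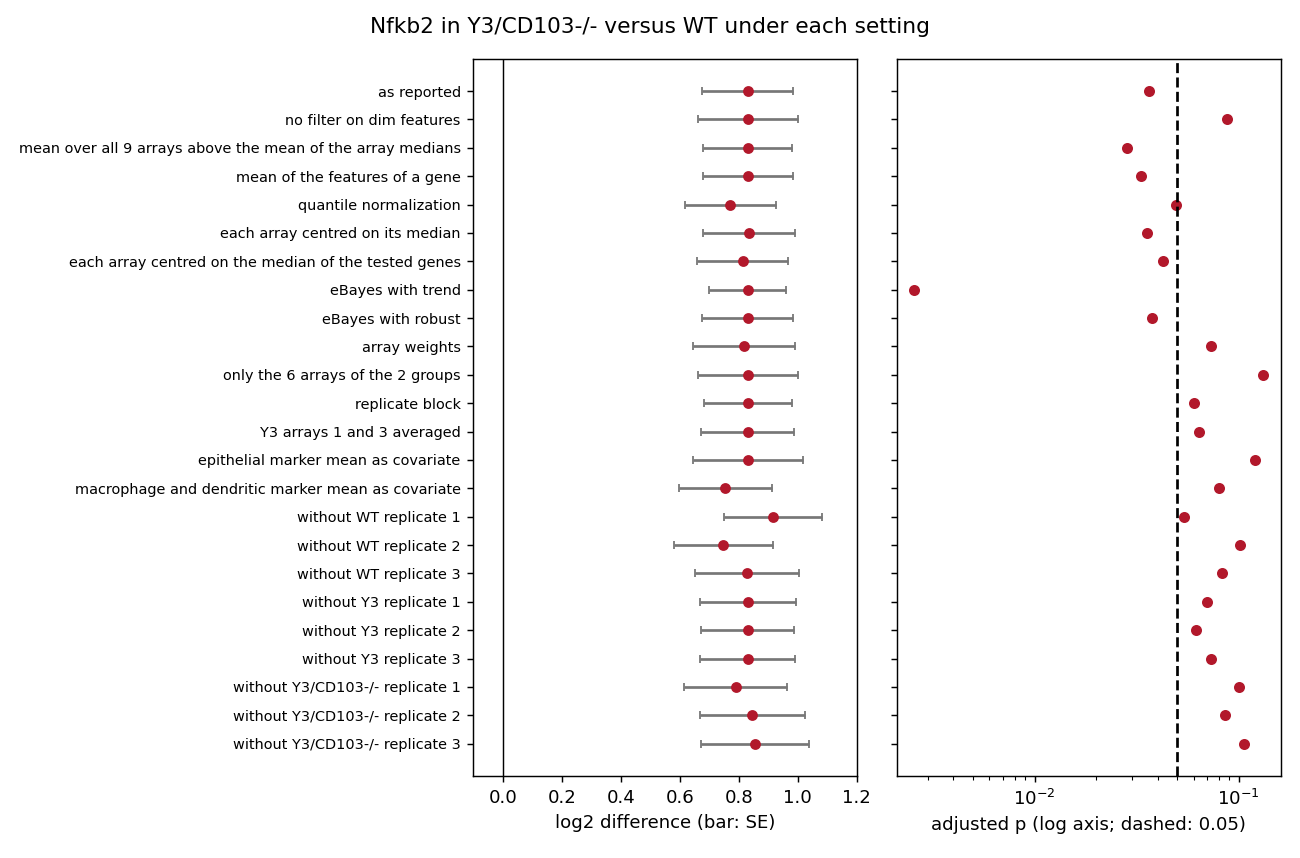
Left, the log2 difference of Nfkb2 in Y3/CD103-/- minus WT with its SE under each processing setting; right, the limma adjusted p of the same fits on a log axis with the threshold of 0.05 dashed. The difference moved between 0.75 and 0.92, while the adjusted p fell on both sides of the threshold, between 0.0026 and 0.131.

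Between Y3/CD103-/- and Y3, which differ in CD103, 0 of the 9 members passed by limma, where 1 gene of all tested, Itgae itself, did (0.00782%). At an unadjusted p under 0.05, 1 member was higher in Y3/CD103-/-, Nfkb2, where 1.78% of all tested genes were. Tnfrsf9, Nfkb2 and Relb were higher in Y3/CD103-/- with no overlap, where 4.11% of all tested genes were. That count was 2 after centring each array on its own median, where 4.05% of all tested genes were, and 5 after centring on the median of the tested genes, where 11.1% were. The members' median difference was 0.03, with 6 of 9 above the median of all tested genes. It was 0.08 after quantile normalization and 0.18, with 8 of 9 above 0, after centring on the median of the tested genes. Traf1 and Cd27 differed by 0.03 and 0.01, each with an interval that spans 0 in the plot of differences. Tnfrsf4 and Tnfrsf18 stood at -0.13 and -0.10, and at 0.0229 and 0.0450 after centring each array on the median of the tested genes.

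**Figure D3:**
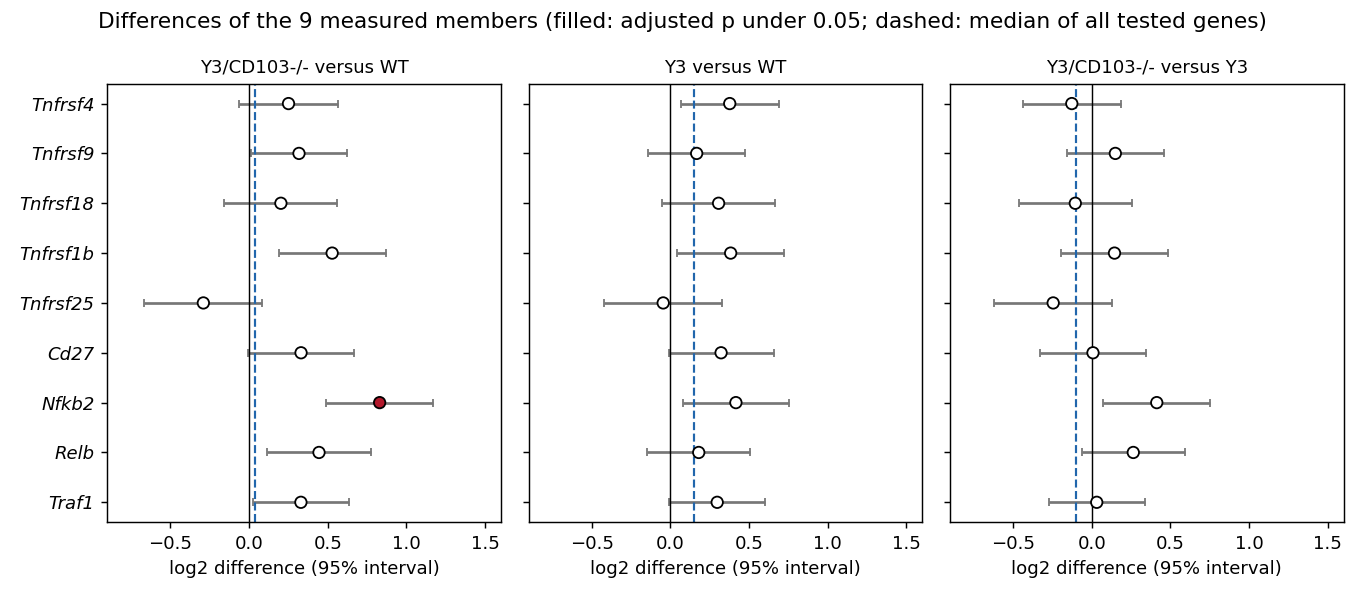
Log2 differences of the 9 measured members (points) with their 95% intervals in Y3/CD103-/- versus WT, Y3 versus WT and Y3/CD103-/- versus Y3; the dashed line is the median over all tested genes. The filled point is Nfkb2 in Y3/CD103-/- versus WT at 0.83, the one difference with an adjusted p under 0.05.

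Over the 9 arrays the members' values were correlated to different degrees, given here as a description of arrays that fall into 3 groups. The pair most alike was Nfkb2 with Relb (r = 0.896), followed by Tnfrsf1b with Relb (r = 0.869), Tnfrsf9 with Traf1 (r = 0.845) and the chromosomal neighbours Tnfrsf4 and Tnfrsf18 (r = 0.831). The tested genes whose pattern was most like that of Nfkb2, by Pearson correlation over the 9 arrays, were Morf4l2 (r = 0.958), Birc6 (r = 0.955) and Stat5b (r = 0.953). In Y3/CD103-/- against WT these 3 differed by 0.71, 0.21 and 0.48, and none passed (limma adjusted p = 0.0527, 0.549 and 0.147).

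Promoter sequence was read for the members because several are known NF-κB targets and Nfkb2 stood out in level. RefSeq promoter windows on GRCm38.p6, from 250 bases before to 50 bases after an annotated start, matched 8 of the 10 members with 12 windows. On both strands they were searched for the κB consensus of 10 bases, which NF-κB dimers bind, and for TTCNNNGAA of 9 bases, the element that STAT5, the factor downstream of IL-2Rβ, binds. The κB consensus occurred in 4 of the 12 windows, against 4.51% of all 32851 windows of the same length, and TTCNNNGAA in 5 of the 12, against 8.30%. All 3 Nfkb2 windows and 1 of the Tnfrsf9 windows held a κB match. The 4 windows thus come from Nfkb2 and Tnfrsf9 alone and are not separate cases, and a share by gene was not computed. The windows shown are the first and second of Nfkb2 (chr19:46304487-46304786 and chr19:46305445-46305744, plus strand), the second of Tnfrsf9 (chr4:150927749-150928048, plus strand) and, as a receptor gene without a κB match, Tnfrsf1b (chr4:145246821-145247120, minus strand). Capitals mark κB matches in the first 3 and the TTCNNNGAA match in Tnfrsf1b.
Nfkb2 window 1: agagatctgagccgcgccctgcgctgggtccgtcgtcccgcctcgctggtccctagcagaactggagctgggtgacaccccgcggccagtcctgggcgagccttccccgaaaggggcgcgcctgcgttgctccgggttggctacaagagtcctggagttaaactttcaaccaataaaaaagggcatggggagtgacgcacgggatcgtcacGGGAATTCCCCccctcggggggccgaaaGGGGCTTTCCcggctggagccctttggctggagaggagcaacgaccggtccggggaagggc
Nfkb2 window 2: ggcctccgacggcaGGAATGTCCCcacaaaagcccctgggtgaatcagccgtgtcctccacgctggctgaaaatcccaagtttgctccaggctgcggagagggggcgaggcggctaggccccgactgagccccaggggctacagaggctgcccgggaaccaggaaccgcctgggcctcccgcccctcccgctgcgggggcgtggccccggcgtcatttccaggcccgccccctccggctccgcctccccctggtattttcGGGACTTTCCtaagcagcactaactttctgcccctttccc
Tnfrsf9 window 2: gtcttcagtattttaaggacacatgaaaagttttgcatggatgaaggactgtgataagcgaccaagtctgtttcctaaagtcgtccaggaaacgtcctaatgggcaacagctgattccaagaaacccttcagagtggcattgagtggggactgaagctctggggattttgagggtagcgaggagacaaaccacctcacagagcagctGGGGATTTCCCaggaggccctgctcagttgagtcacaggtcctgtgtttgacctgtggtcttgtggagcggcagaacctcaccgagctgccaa
Tnfrsf1b window: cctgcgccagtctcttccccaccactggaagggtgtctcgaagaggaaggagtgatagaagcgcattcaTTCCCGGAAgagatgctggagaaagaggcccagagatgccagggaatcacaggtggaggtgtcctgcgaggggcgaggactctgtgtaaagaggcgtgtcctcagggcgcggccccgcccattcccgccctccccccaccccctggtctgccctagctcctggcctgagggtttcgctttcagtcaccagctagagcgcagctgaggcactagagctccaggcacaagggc

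In Nfkb2 window 1 the κB matches were GGGAATTCCCC, 39 bases before the start, made of 3 overlapping matches, and GGGGCTTTCC, 11 bases before it, and TTCCCCGAA stood 148 bases before it. In Nfkb2 window 2 they were GGAATGTCCC, 236 bases before that start, and GGGACTTTCC, 10 bases after it. The third Nfkb2 window overlaps the second and holds the same GGGACTTTCC. In Tnfrsf9 window 2, GGGGATTTCCC lay 43 bases before the start, again 3 overlapping matches, and TTCCAAGAA 136 bases before it. Tnfrsf1b held TTCCCGGAA 181 bases before its start. A match is only a run of letters in these windows, and binding was not measured.

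**Figure D4:**
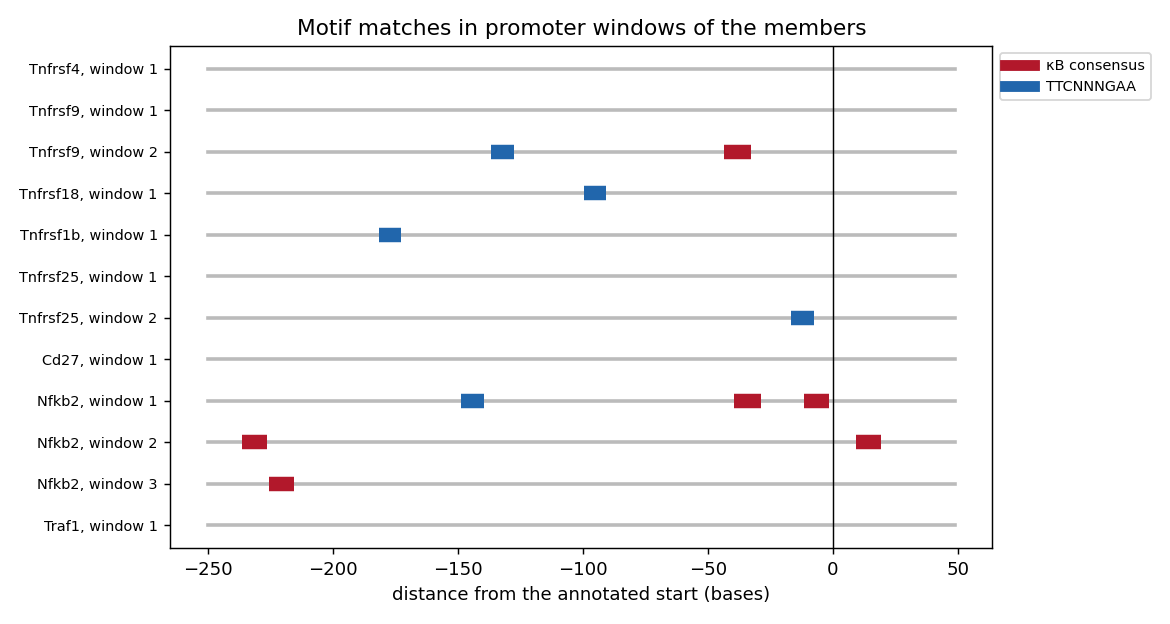
Position of κB consensus matches (red) and TTCNNNGAA matches (blue) in the 12 promoter windows of 8 members, in bases from the annotated start at 0. The κB matches lie in the 3 Nfkb2 windows and in the second Tnfrsf9 window.

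The other genes of the pathway were described from 6 lists of 87 genes, of which 79 were measured and 69 tested. In Y3/CD103-/- against WT, 1 of the 69 rose (Birc2) and 1 fell (Malt1), or 2.90%, against 0.836% of all tested genes. In Y3 against WT 1 rose (Birc2) and 0 fell, or 1.45%, against 0.79%. In Y3/CD103-/- against Y3, 0 passed by limma; at an unadjusted p under 0.05, 1 was higher and 6 were lower. The median difference of the 69 was 0.06, 0.18 and -0.12 in these 3 comparisons, beside 0.04, 0.15 and -0.10 for all tested genes. At an unadjusted p under 0.05, 9 of the 69 were higher and 7 lower in Y3/CD103-/- against WT, where 7.9% and 5.35% of all tested genes were. There were 14 higher and 6 lower in Y3 against WT, where 13.4% and 3.6% were, and in Y3/CD103-/- against Y3 the shares of all tested genes were 1.78% and 8.12%.

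Birc2, which encodes cIAP1, a ubiquitin ligase held by TRAF2 at these receptors and a brake on p100 processing, gave 8.89, 9.0 and 9.33 in Y3/CD103-/-, 9.14, 9.16 and 9.37 in Y3, and 8.24, 8.26 and 8.23 in WT. All 6 arrays of the Y3/CD103-/- and Y3 groups stood above the 3 WT arrays. It rose by 0.83 ± 0.16 (SE) in Y3/CD103-/- against WT (limma adjusted p = 0.0447) and by 0.98 ± 0.16 (SE) in Y3 against WT (limma adjusted p = 0.0225). With 1 array left out, the Y3/CD103-/- difference stayed between 0.70 and 0.92 and passed in 0 of 9 fits (limma adjusted p = 0.0636 to 0.147). The Y3 difference stayed between 0.90 and 1.02 and passed in 4 of 9 fits, with limma adjusted p-values of 0.0979, 0.0641 and 0.145 without Y3 array 1, 2 or 3 and 0.0639 and 0.0621 without WT array 2 or 3. With the epithelial or the macrophage and dendritic marker mean as a covariate, the difference was 0.74 and 0.82 in Y3/CD103-/- (limma adjusted p = 0.156 and 0.0879) and 0.84 and 0.96 in Y3 (limma adjusted p = 0.217 and 0.397).

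Malt1, the paracaspase that links the antigen receptor to NF-κB, moved the other way. It gave 7.64, 8.0 and 7.75 in Y3/CD103-/-, 8.23, 8.11 and 8.26 in Y3, and 8.75, 8.68 and 8.72 in WT. The groups stood in separate steps, with Y3/CD103-/- lowest. It fell by 0.92 ± 0.15 (SE) in Y3/CD103-/- against WT (limma adjusted p = 0.0224), and differed by -0.51 in Y3 against WT (limma adjusted p = 0.134). In Y3/CD103-/- against Y3 it differed by -0.41 and did not pass (limma adjusted p = 0.441). With 1 array left out, the difference of Y3/CD103-/- from WT stayed between -1.02 and -0.84 and passed in 3 of 9 fits. The limma adjusted p was 0.0657 and 0.0911 without Y3/CD103-/- array 1 or 3, 0.0509 without Y3 array 1, and 0.0624, 0.0628 and 0.0586 without WT array 1, 2 or 3. With the epithelial marker mean as a covariate the difference was -0.96 (limma adjusted p = 0.0708), and with the macrophage and dendritic mean it was -0.95 (limma adjusted p = 0.0466).

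Among the ligands, 0 of 11 tested genes passed in any comparison by limma, and at an unadjusted p under 0.05 there were 2 higher and 0 lower in Y3/CD103-/- and 4 higher and 0 lower in Y3, each against WT. The shares of all tested genes were 7.9% higher and 5.35% lower in Y3/CD103-/-, and 13.4% and 3.6% in Y3. Tnfsf15, which encodes TL1A, the ligand of DR3, differed by 0.85 in Y3/CD103-/- (limma adjusted p = 0.0881) and 0.73 in Y3 (limma adjusted p = 0.120) against WT. Its WT values of 3.03, 3.03 and 2.82 lay below the medians of those arrays (3.23, 3.18 and 3.19). It thus entered the tests only through the groups where it was higher, and its differences are not read as support. Tnfsf10, which encodes TRAIL, differed by 1.08 in Y3 against WT (limma adjusted p = 0.0790). Fasl, the ligand of the death receptor Fas, differed by 0.57 in Y3/CD103-/- and 0.81 in Y3 against WT (limma adjusted p = 0.245 and 0.0953).

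Among 12 other receptors of the family, 0 passed in any comparison by limma, and at an unadjusted p under 0.05 there were 2 higher and 1 lower in Y3/CD103-/- and 3 higher and 2 lower in Y3, each against WT. The shares of all tested genes were 7.9% higher and 5.35% lower in Y3/CD103-/-, and 13.4% and 3.6% in Y3. Fas, a death receptor, differed by 0.75 in Y3/CD103-/- and by 1.07 in Y3 against WT (limma adjusted p = 0.167 and 0.0555). Tnfrsf8, which encodes CD30 and follows Tnfrsf1b on chromosome 4, differed by 0.46 and 0.55 (limma adjusted p = 0.252 and 0.147). Tnfrsf10b, a receptor of TRAIL, stood at -0.95 and -0.80 (limma adjusted p = 0.0685 and 0.107).

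Of 17 TRAF adaptors and receptor-proximal genes, Birc2 alone passed, in Y3/CD103-/- and in Y3 against WT, where 0.836% and 0.79% of all tested genes did. The others of smallest p were the adaptor Traf4, at 0.69 in Y3/CD103-/- and 0.75 in Y3 against WT (limma adjusted p = 0.144 and 0.101), and the adaptor Traf5, at -0.90 in Y3/CD103-/- against Y3 (limma adjusted p = 0.383). At an unadjusted p under 0.05, 2 of the 17 were higher and 1 lower in Y3/CD103-/-, and 3 higher and 0 lower in Y3, each against WT. Of 6 kinases and antigen receptor genes, 1 was higher and 2 lower in Y3/CD103-/-, and 1 higher and 1 lower in Y3. The shares of all tested genes were 7.9% higher and 5.35% lower in Y3/CD103-/-, and 13.4% and 3.6% in Y3. Malt1 alone of the 6 passed, in Y3/CD103-/- against WT. Its partner Bcl10 differed by 0.53 in Y3/CD103-/- and 0.45 in Y3 against WT (limma adjusted p = 0.201 and 0.221), opposite in sign to Malt1. Prkcq, which encodes the kinase upstream of both, stood at -0.67 in Y3/CD103-/- against WT (limma adjusted p = 0.207).

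Of 8 other NF-κB subunits and IκB proteins, 0 passed in any comparison by limma. At an unadjusted p under 0.05, 2 were higher in Y3/CD103-/- and 3 in Y3, each against WT, where 7.9% and 13.4% of all tested genes were. Those of smallest p were the inhibitors Nfkbib, at 0.55 and 0.40 (limma adjusted p = 0.111 and 0.201), and Nfkbie, at 0.45 and 0.35 (limma adjusted p = 0.187 and 0.241), in Y3/CD103-/- and Y3 against WT. Bcl3, a nuclear IκB protein that binds p52, differed by 0.43 in Y3 against WT (limma adjusted p = 0.232). Of 15 target genes of NF-κB, 0 passed by limma. At an unadjusted p under 0.05, 0 were higher and 3 lower in Y3/CD103-/- against WT, where 7.9% and 5.35% of all tested genes were. In Y3 against WT 0 were higher and 3 lower, where 13.4% and 3.6% of all tested genes were. The 3 were the chemokine receptor Ccr7, at -0.85 and -0.48 (limma adjusted p = 0.0669 and 0.232), the activation marker Cd83, at -0.73 and -0.81 (limma adjusted p = 0.147 and 0.101), and the transcription factor Irf4, at -0.62 and -0.51 (limma adjusted p = 0.238 and 0.265).

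**Figure D5:**
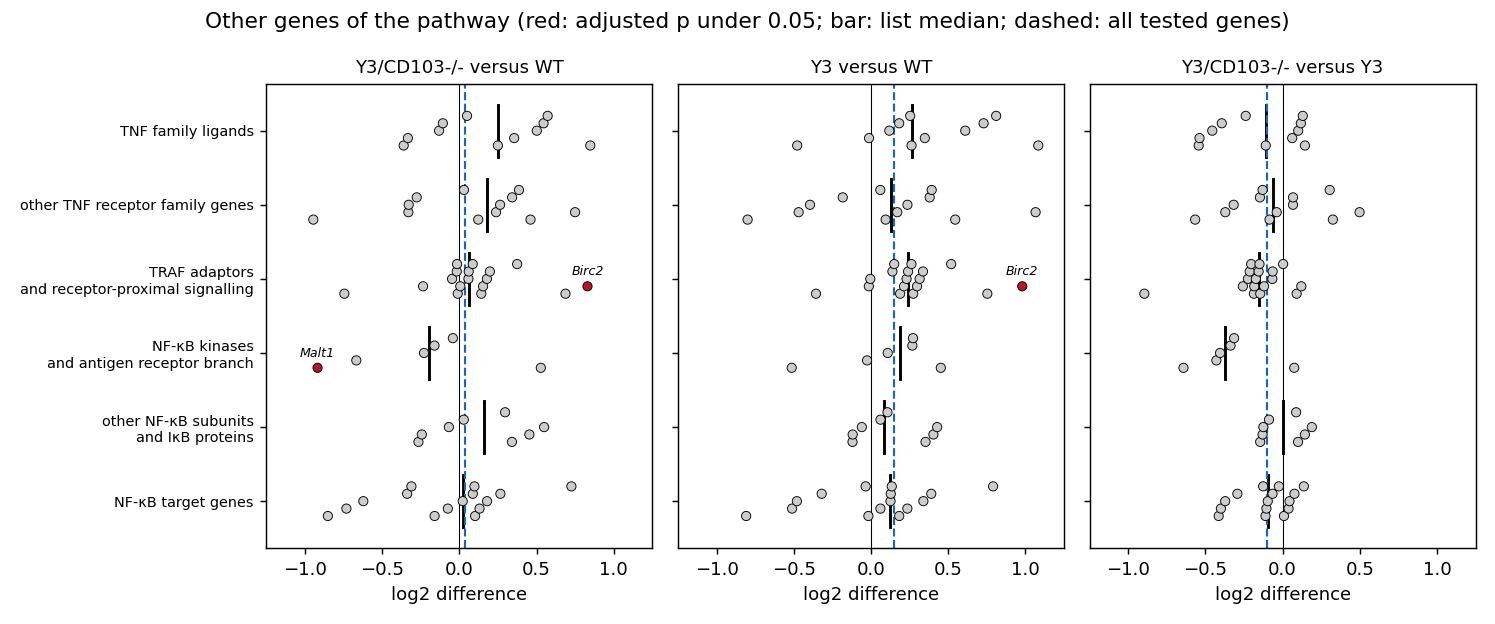
Log2 differences of the 69 tested pathway genes by list in Y3/CD103-/- versus WT, Y3 versus WT and Y3/CD103-/- versus Y3; each point is a gene, the bar the median of its list and the dashed line the median of all tested genes. Red points passed at an adjusted p under 0.05: Birc2 at 0.83 and 0.98 against WT, and Malt1 at -0.92.

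Markers of other cell types were read beside these values, as the log2 of the summed signal of each list. For CD8, γδ and NK cells it was 10.97 to 11.14 in Y3/CD103-/-, 10.96 to 11.26 in Y3 and 9.67 to 9.85 in WT. Of the 7 tested genes of that list, Gzma and Nkg7 rose in Y3/CD103-/-, and Gzma, Nkg7 and Xcl1 in Y3, each against WT, and these 3 made up most of the sum. Cd8b1, Ncr1 and Eomes did not follow, at -0.62, -0.27 and -0.12 in Y3/CD103-/- and -0.25, -0.19 and 0.24 in Y3, and Klrd1, Klrk1 and Klre1 lay below the array median on all 9 arrays. Cd8a, the remaining tested gene, stood at 0.42 in Y3/CD103-/- and 0.13 in Y3 and did not pass (limma adjusted p = 0.467 and 0.795). It lay above the array median on 4 of the 9 arrays. For innate lymphoid cells it was 8.51 to 8.78, 8.22 to 8.73 and 9.34 to 9.53 in Y3/CD103-/-, Y3 and WT, and the largest part of that sum was Il7r, the brightest of its 5 tested genes. Il7r and Il17rb fell in both groups against WT, while Kit, Il23r and Rora stood at 0.84, 0.69 and 0.31 in Y3/CD103-/- and 0.57, 0.49 and 0.05 in Y3, none past the test. The summed levels of both lists separate both groups from WT, but not all their genes run the same way, and their part in the members' differences was not tested. The epithelial list ran from 8.21 to 10.43 in Y3/CD103-/-, 8.29 to 9.02 in Y3 and 9.60 to 11.04 in WT, so that all Y3 arrays lay below all WT arrays. By limma, 0 of its 15 tested genes were called. Reg3g alone of the 15 was higher than in WT, by 0.30 in Y3/CD103-/- and 0.22 in Y3. Fabp2 differed most from WT, by -2.60 and -2.74 in the same order (limma adjusted p = 0.0669 and 0.0557). The macrophage and dendritic list ran from 8.82 to 9.08, 8.18 to 8.38 and 8.54 to 9.56, so that all Y3 arrays lay below all arrays of both other groups. Of its 11 tested genes H2-Aa fell in Y3 against WT. H2-Ab1 and H2-Eb1 differed by -1.48 and -1.17 in that comparison without passing (limma adjusted p = 0.0921 and 0.0909). Itgam and Cd14 lay below the array median on all 9 arrays. Cd68 alone of the 11 was higher in Y3 than in WT, by 0.77, without passing (limma adjusted p = 0.0721). In Y3/CD103-/- it stood at 0.74 (limma adjusted p = 0.0801), and Lyz2 and Adgre1 were also higher, by 0.20 and 0.17. The lists for B and plasma cells, stromal cells and granulocytes stayed between 5.01 and 7.54 on all arrays. The Treg and T cell list itself spanned 12.62 to 12.75, 12.73 to 12.76 and 12.71 to 12.75, with Il2ra and Lrrc32 lower in Y3/CD103-/- than in WT.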

How the data were processed

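RNA of sorted gut Tregs was amplified, biotin-labelled and hybridised to 9 Affymetrix mouse Gene ST 2.0 arrays, 3 per genotype, per the labels' protocols. The authors deposited log2 signal values made with RMA, per the submitters' processing notes; its version and the build were not stated. The scale was taken from the range of the values (0.115 to 14.05). Of 39137 features, 23521 were annotated to exactly 1 gene; the brightest per gene was kept, giving 22180 genes. A gene was tested if it exceeded its array's median on at least 3 of 9 arrays, which left 12792 and removed 9388. Group means were fitted with limma 3.58.1 (lmFit, eBayes) in R 4.3.3 over all 9 arrays, 2-sided, with Benjamini-Hochberg adjustment over all tested genes in each comparison, and the fit was tested on simulated data. The number of arrays limits the precision. Genes named were all members, Itgae, Il2rb, Il2ra and Foxp3, pathway genes that passed, up to 4 of smallest p per pathway list, markers that describe a list, and the 3 genes most correlated with a member that passed. The members, lists and naming rule were chosen with earlier results of these data known. Alternatives changed the filter, features per gene, scaling, variance model, array weights, arrays fitted, covariates and replicate block; centring on the median of the tested genes was added after seeing the data.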

Additional observations from a re-analysis of the deposited data

How the results depend on the processing

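The 3 arrays per group limit the precision. Of 621 alternative values of the members, 598 kept direction and side of the threshold, 16 kept direction and lost the call, 2 gained one and 5 changed sign. The sign changes were all of small differences: Tnfrsf4 (0.0229) and Tnfrsf18 (0.0450) in Y3/CD103-/- against Y3 when centred on the median of the tested genes, Tnfrsf25 in Y3 against WT (0.0589 without WT replicate 1, range -0.13 to 0.0589 over the arrays left out), and, in Y3/CD103-/- against Y3, Cd27 (-0.0226 without Y3 replicate 2, range -0.0226 to 0.0442) and Traf1 (-0.0234 without Y3/CD103-/- replicate 3, range -0.0234 to 0.0736). Nfkb2 in Y3/CD103-/- against WT passed in 7 of 14 other alternatives and in 0 of 9 that left an array out; the cause was not tested. Itgae passed in 12 of 14 other alternatives in Y3/CD103-/- against WT (adjusted p up to 0.0773) and in 11 of 14 in Y3 against WT (up to 0.401), Birc2 in 7 and 10 of 14, and Malt1 in Y3/CD103-/- in 10 of 14. Counts below are genes called by limma at an adjusted p under 0.05, in Y3/CD103-/- against WT and then in Y3 against WT. All tested genes numbered 107 and 101, members 1 and 0, and pathway genes 2 and 1. Without a filter these were 54 and 52, members 0 and 0, and pathway 0 and 0. That fit had more genes in the adjustment and also a larger SE for Nfkb2 in Y3/CD103-/- against WT (0.169 against 0.154). Their parts in the lost calls were not tested. With a variance trend they were 303 and 332 (4 in Y3/CD103-/- against Y3), members 2 and 1 (Tnfrsf1b, adjusted p 0.0096, joined Nfkb2; Tnfrsf4, 0.0224, in Y3), and pathway 7 and 7. With array weights they were 60 and 346 (9 in Y3/CD103-/- against Y3), members 0, and pathway 1 and 6. With the 6 arrays of a comparison only they were 17 and 63, members 0, and pathway 0 and 2. With Y3 arrays 1 and 3 averaged they were 62 and 12, members 0, and pathway 1 and 0. With the epithelial marker mean as a covariate they were 21 and 5, members 0, and pathway 0 and 0. With the macrophage and dendritic mean they were 53 and 1 (0 in Y3/CD103-/- against Y3), members 0, and pathway 1 and 0. The mean of a gene's features called 3 genes in Y3/CD103-/- against Y3, where 1 was called, and the filter on the mean over arrays called 2 pathway genes in Y3. Leaving out each replicate gave 28 to 70 and 8 to 119 genes (1 to 2 in Y3/CD103-/- against Y3), 0 members in each of the 3 comparisons, and 0 to 1 and 0 to 2 pathway genes (0 in Y3/CD103-/- against Y3). Scaling moved the split of all calls: 79 higher and 22 lower in Y3 against WT became 46 and 32 after quantile normalization and 46 and 54 after centring on the median of the tested genes, and in Y3/CD103-/- against WT 71 and 36 became 75 and 49 and 69 and 40.

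Arrays of different groups share replicate numbers. Same-numbered arrays deviated together with correlations of -0.04 to 0.11, and 7 of 18 comparisons of an array with another group were best with its own number, so the numbers were not taken as pairs. With the replicate block, 55 and 54 genes, 0 and 0 members, and 0 and 1 pathway genes were called, and in Y3/CD103-/- against WT the adjusted p was 0.06 for Nfkb2, 0.0667 for Birc2 and 0.057 for Malt1.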
